A study of Mus musculus with 8 samples.

Results

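The cells described are the B cells of 8 mouse livers, 4451 of the 80474 cells that passed the quality limits, out of 88581 barcodes in the series. A barcode was kept when it held more than 500 genes and under 25% of its unique molecular identifiers (UMIs, each standing for 1 captured RNA molecule) came from mitochondrial genes. A kept barcode was taken as a B cell when Cd79a, Cd79b and Ms4a1 together held at least 4 UMIs and the T cell gene Cd3e, the macrophage gene Csf1r, the plasmacytoid dendritic cell gene Siglech and the NK cell gene Ncr1 held none. Livers of wild-type C57BL/6 mice were perfused through the heart, dissociated and profiled by droplet single-cell RNA sequencing, 1 library per mouse, to follow non-alcoholic steatohepatitis (NASH) with fibrosis. The 2 control mice received normal diet and drinking water. The 3 HFD+F+CCl4 mice received a high-fat diet, the 3 WD+F+CCl4 mice a western diet, and both of these groups also received a fructose solution and weekly intraperitoneal carbon tetrachloride (CCl4), a liver toxin, for 16 weeks. Both models therefore combine a diet, a sugar and a toxin, whose parts cannot be told apart here. Red blood cells were lysed and dead cells removed before loading, so the shares of cells are those of a suspension and not of the intact tissue.

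B cells are lymphocytes that carry a membrane immunoglobulin as their antigen receptor. CD79A and CD79B, encoded by Cd79a and Cd79b, pass its signal into the cell, and MS4A1, also called CD20, is a surface protein of mature B cells. Naive B cells carry IgM and IgD at the same time, switch to IgA or IgG after activation, and can become plasma cells that secrete antibody through an enlarged endoplasmic reticulum. In the liver they are found in the sinusoids and portal tracts.

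The libraries held 6135827 to 64855024 UMIs, and control replicate 2 was the shallowest, with a median of 992.5 UMIs per kept cell against 2397 to 4278 in the other 7 mice. The B cells were small libraries, with a median of 1300.5 to 2200 UMIs per cell across mice. Barcode sequences were shared between libraries in 732 kept cases, 75 of the B cells had a barcode that was kept in another library, and 1 barcode was a B cell in more than 1 library. Replicate numbers only name mice. HFD+F+CCl4 replicate 3 contributed 24 B cells and HFD+F+CCl4 replicate 1 contributed 76, so values of these mice rest on few cells.

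Markers that the selection did not use matched the label. With each cell thinned to 1000 UMIs, Ighd, the IgD heavy chain, was found in 45.3% to 80.1% of B cells per mouse, against 0% to 8.44% of T cells. The T cells, used throughout as lymphocytes that should lack B cell genes, held Cd3e and none of the other selection genes. Ebf1 and Pax5, transcription factors of B cell identity, were found in 45.6% to 85.5% and 21.3% to 37.9% of B cells, against at most 5.91% and 3.797% of T cells. Fcer2a, the low-affinity IgE receptor of follicular B cells, was found in 24.1% to 46.2%. Ighm and Igkc, the IgM heavy chain and the kappa light chain, were found in 73.9% to 95.02% and 93.3% to 99.0% of B cells. The highest T cell shares of Ighd and Igkc were both in control replicate 2, where 62.4% of T cells held Igkc.

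The limits of the selection can be seen in the cells next to it. Of 5937 kept cells with at least 4 marker UMIs, 1486, or 25.03%, were left out by the 4 excluding genes, most often by Csf1r with 827 cells and Cd3e with 525. This share was 21.9% in control replicate 1 and 47.2% in HFD+F+CCl4 replicate 1. The 329 B cells with exactly 4 marker UMIs had a median of 1467 UMIs, and their Ighd stood at 986 counts scaled to 1000000 UMIs (CPM). The 366 cells just outside, with 3 marker UMIs, had a median of 1335.5 UMIs and 687 CPM of Ighd. These values pool all mice. The cells just outside held more Ighd than those just inside in HFD+F+CCl4 replicates 1 (1100 against 434 CPM) and 2 (737 against 619 CPM) and WD+F+CCl4 replicate 2 (1028 against 787 CPM). In HFD+F+CCl4 replicate 3 both stood at 0. The B cells had a median of 9 marker UMIs.

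B cells were scarcer in the HFD+F+CCl4 livers than in either other group by the means, and no comparison passed its test. With 3 mice or fewer in each, the comparisons of 2 groups could not reach an exact p under 0.100. B cells made up 20.03% of kept cells in control replicate 1 and 3.45% in control replicate 2. Under HFD+F+CCl4 they made up 0.680%, 2.34% and 0.225%, and under WD+F+CCl4 9.55%, 3.33% and 2.86%. All 3 HFD+F+CCl4 mice lay below both controls and below all 3 WD+F+CCl4 mice, while the WD+F+CCl4 mice overlapped the controls. Among cells with more than 1000 genes the models overlapped, with 0.524%, 1.39% and 0.166% under HFD+F+CCl4 and 2.62%, 0.661% and 1.22% under WD+F+CCl4, and the difference between their means was 0.81 points. The mean was 1.08% ± 1.11 (SD, n = 3) under HFD+F+CCl4, 5.25% ± 3.73 (SD, n = 3) under WD+F+CCl4 and 11.7% ± 11.7 (SD, n = 2) in controls.

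The difference from control was -10.7 percentage points under HFD+F+CCl4, with an exact two-sided permutation p of 0.100 that is the smallest these group sizes allow. Under WD+F+CCl4 it was -6.50 points, with an exact permutation p of 0.500. The WD+F+CCl4 mean exceeded the HFD+F+CCl4 mean by 4.16 points, with an exact permutation p of 0.100, again the smallest possible. For the 6 NASH mice against the controls the difference was -8.58 points, with an exact permutation p of 0.0714 where 0.0357 could be reached. Adjusted over these 4 comparisons by the Benjamini-Hochberg method, the exact permutation p-values were 0.133, 0.500, 0.133 and 0.133. Without control replicate 1, the difference under WD+F+CCl4 turned to 1.79 points and that of the 6 NASH mice shrank to -0.290 points. Fewer B cells and more cells of other types in a suspension cannot be told apart from such shares.

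**Figure D1:**
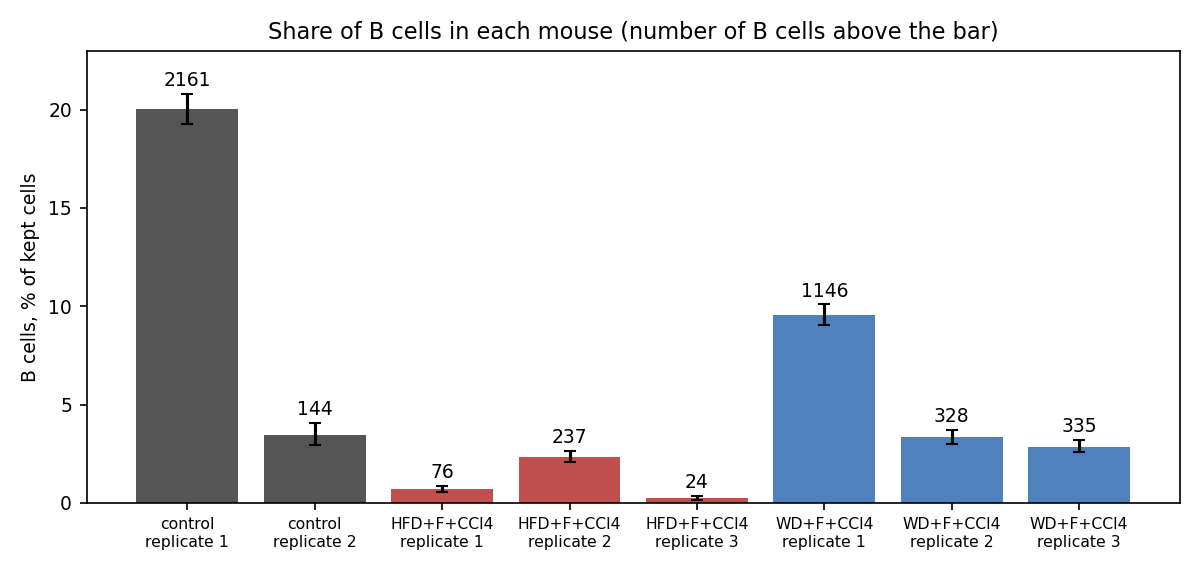
B cells as a percentage of kept cells in each of the 8 mice. Bars start at 0, lines give the 95% exact binomial interval of each share, and the number of B cells stands above each bar. Control replicate 1 stands at 20.03% and the other mice between 0.225% and 9.55%.

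The B cells fell into classes by the heavy chain they transcribed. Switched cells held at least 3 UMIs of Igha, Ighg1, Ighg2b, Ighg2c and Ighg3 together, and more of these than of Ighm and Ighd. IgD cells held Ighd and fewer than 3 switched UMIs, and IgM-only cells held at least 3 UMIs of Ighm, none of Ighd and fewer than 3 switched UMIs. In the counts as deposited, 3734 B cells were in the IgD class, 456 were IgM-only and 120 were switched. In each liver most B cells were in the IgD class.

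With cells thinned to 1000 UMIs, IgD cells made up 79.9% and 61.2% of the B cells in the controls, 45.3%, 58.5% and 52.2% under HFD+F+CCl4 and 72.0%, 69.5% and 57.4% under WD+F+CCl4. IgM-only cells made up 13.6% in both controls, 25.3%, 27.2% and 17.4% under HFD+F+CCl4 and 18.1%, 20.9% and 29.3% under WD+F+CCl4. The class depends on depth, since a cell can enter it when its Ighd was not captured. In the counts as deposited it made up 6.06% and 12.5% in the controls, 18.4%, 15.2% and 12.5% under HFD+F+CCl4 and 12.1%, 15.9% and 18.8% under WD+F+CCl4. Switched cells made up 1.74% and 9.71% in the controls, 9.33%, 3.13% and 13.0% under HFD+F+CCl4 and 1.06%, 2.49% and 1.81% under WD+F+CCl4. All 3 HFD+F+CCl4 mice had more switched cells than any WD+F+CCl4 mouse, and the controls spanned both groups. These shares rest on 7, 7 and 3 thinned switched cells under HFD+F+CCl4 and on 12, 8 and 6 under WD+F+CCl4. HFD+F+CCl4 replicate 2 lay among the WD+F+CCl4 mice under other limits. It stood at 0.943% without likely doublets, where the WD+F+CCl4 mice held 0.555%, 2.24% and 0.935% and the difference between the model means was -3.28 points. HFD+F+CCl4 replicate 3 had fewer than 20 cells and no value there, so this difference leaves it out. With at least 6 marker UMIs HFD+F+CCl4 replicate 2 stood at 1.69% against 0.981%, 2.56% and 2.08%. In cells with more than 1000 genes, where replicate 3 again had no value, replicate 2 stood at 6.36% against 4.39%, 8.00% and 5.22%.

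The mean switched share was 1.79% ± 0.715 (SD, n = 3) under WD+F+CCl4 and 8.50% ± 5.01 (SD, n = 3) under HFD+F+CCl4. The difference of -6.71 points had an exact two-sided permutation p of 0.100, the smallest possible, and an adjusted exact permutation p of 0.200. The 6 NASH mice differed from the controls by -0.578 points, with an exact permutation p of 0.857, raw and adjusted. In control replicate 2, Igha was found in 36.9% of thinned B cells and in 39.2% of thinned T cells. Its summed level in that mouse was 4795 CPM in B cells and 767 CPM in T cells. In the other 7 mice T cells held Igha in 0.341% to 11.0%, the highest being control replicate 1, where B cells held it in 11.7%. The part of free RNA in the switched shares was not tested.

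**Figure D2:**
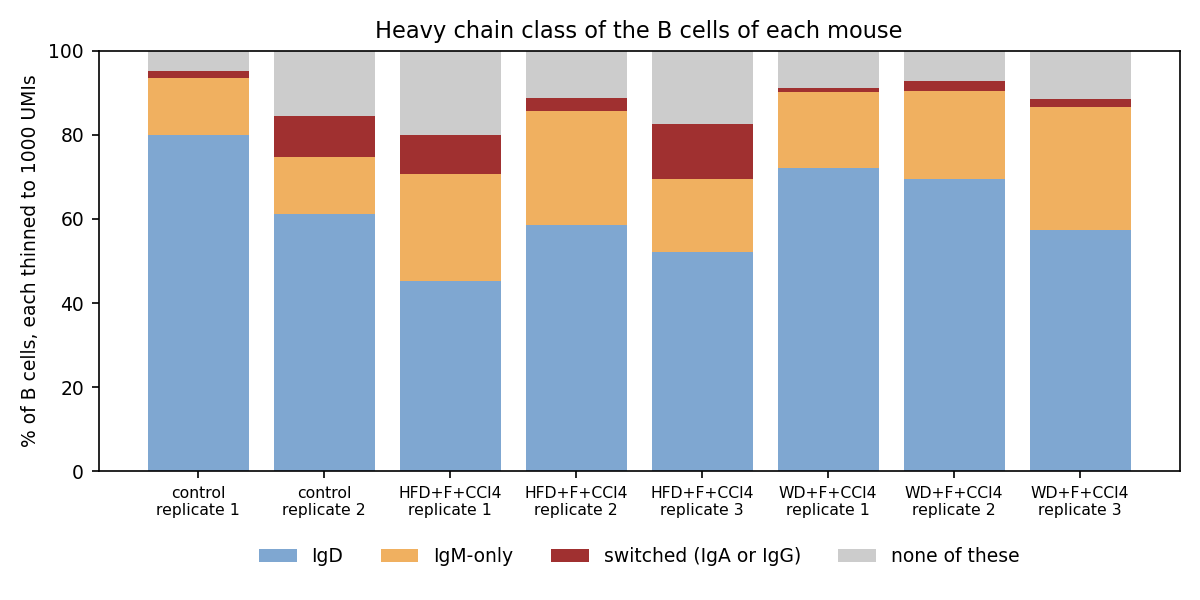
Stacked percentage of B cells, thinned to 1000 UMIs each, in the IgD, IgM-only and switched classes and in none of these, for each mouse. IgD cells are the largest class in all 8 mice, and the switched class runs from 1.06% to 13.0%.

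Light chains were mostly kappa. Of 4442 B cells with at least 3 light chain UMIs, 428, or 9.64%, held more lambda than kappa, with 8.38% to 18.4% across mice. In 83.6% of these cells both chains had at least 3 UMIs, although a B cell normally expresses 1 of them. The lambda genes Iglc1, Iglc2 and Iglc3 stood at 870 to 6894, 1207 to 2675 and 807 to 1700 CPM in the summed B cells of the mice. In T cells they stood at 0.508 to 109, 0 to 178 and 0 to 178 CPM, each highest in control replicate 2. The part of free RNA in the cells with both chains was not tested.

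A small set of B cells devoted much of their RNA to immunoglobulin. There were 54 cells with at least 20% of their UMIs from immunoglobulin genes, a limit chosen after the values were seen, called plasma-type here. They were 1.21% of the B cells and held 59.3% of all immunoglobulin UMIs. Their median was 12160 UMIs per cell. Igha was the leading heavy chain in 32, Ighm in 15, Ighg2b in 4, Ighg3 in 2 and Ighg2c in 1. Of 21 with at least 10 UMIs of heavy chain variable genes, 17 had over 80% of them from a single gene, and 15 different variable genes led. Just below the limit, 8 cells had 15% to 20%, and just above it 7 had 20% to 25%, while 4384 cells had under 10%.

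The plasma-type cells numbered 18 and 3 in the controls, 4, 8 and 4 under HFD+F+CCl4 and 8, 4 and 5 under WD+F+CCl4. In HFD+F+CCl4 replicate 3 they were 16.7% of its B cells and held 56.6% of its B cell UMIs, so the summed values of that mouse are largely those of 4 cells. The summed level of Igkc, the kappa light chain, was 24098 and 19328 CPM in the controls, 47556, 73649 and 149769 CPM under HFD+F+CCl4 and 27522, 39108 and 36056 CPM under WD+F+CCl4. It was called under HFD+F+CCl4 in the comparison of conditions described further on, with a log2 fold change of 2.27 ± 0.48 (adjusted p = 0.0448 by edgeR's quasi-likelihood test). Outside the plasma-type cells Igkc stood between 8776 and 16137 CPM in all 8 mice.

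The next comparison asked which genes go with a switched heavy chain. Switched cells transcribed the secretory programme of plasma cells, more genes of the respiratory chain and the cell cycle, and less of the receptors and transcription factors of resting follicular B cells. Counts were summed per mouse and class and compared within mice by edgeR's quasi-likelihood test, in the 5 mice with at least 10 cells of each class, 99 switched against 3203 IgD cells. Of 1646 genes tested, 715, or 43.4%, were called at a Benjamini-Hochberg adjusted p under 0.05, with 368 higher (22.4%) and 347 lower (21.1%) in switched cells. The median log2 fold change of all genes tested was -0.06. The genes that define the B cells and the classes were not tested.

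Of 11 plasma cell genes tested, 10 were higher in switched cells, with a median log2 fold change of 4.37. Jchain, which joins IgA and IgM into polymers, stood at 18380 and 9478 CPM in the switched cells of the controls, 9488 and 17920 CPM in those of HFD+F+CCl4 replicates 1 and 2 and 20150 CPM in those of WD+F+CCl4 replicate 1. The IgD cells of the same mice held 20.2, 24.8, 17.3, 12.2 and 1.16 CPM. The classes did not overlap, and the log2 fold change was 11.04 ± 0.50 (SE, n = 5 mice, adjusted p = 2.69e-09 by edgeR's quasi-likelihood test).

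Derl3, a factor that draws misfolded proteins out of the endoplasmic reticulum, stood at 300 ± 45.2 CPM (SD, n = 5) in switched cells and 1.48 ± 2.19 CPM in IgD cells. Xbp1, the transcription factor of the unfolded protein response that plasma cells need, stood at 452.7 to 1286 CPM against 48.2 to 132 CPM. Creld2 and Sdf2l1, further proteins of the endoplasmic reticulum, were higher by 4.77 ± 0.26 and 4.47 ± 0.31 on the log2 scale, and Eaf2 and Fkbp11, genes of the plasma cell list, by 6.60 ± 0.36 and 4.38 ± 0.41. Tent5c, which lengthens the tails of immunoglobulin mRNA, was higher by 5.95 ± 0.43. The switched cells of each of the 5 mice lay above their IgD cells in these genes, with the largest adjusted p at 1.16e-06 by the same edgeR test.

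Some of the genes higher in switched cells carried the same promoter element. The ER stress element, bound by factors of the unfolded protein response, has the letters CCAAT, then any 9 bases, then CCACG, and it was searched on both strands from 250 bases before to 50 bases after each RefSeq gene start in GRCm38.p6. It was found for 37 of 27025 gene symbols with a promoter sequence, or 0.137%. Among genes tested it was found for 8 of 293 that were higher in switched cells (2.73%), for 0 of 262 that were lower and for 1 of 745 that were not called (0.134%). The element was chosen with the results known, and a match is a description of letters, not of binding. The 8 genes were Derl3, Creld2, Hsp90b1, Hspa5, Dnajc3, Pdia6, Calr and Canx, named after their values were seen, and all encode proteins of the endoplasmic reticulum. Other genes of that compartment that were higher, among them Sdf2l1, Fkbp11 and Txndc5, did not carry these letters in the window. The promoters of 4 of the 8 genes are shown because they carry the element beside log2 fold changes of 7.76 (Derl3), 4.77 (Creld2), 3.88 (Hsp90b1) and 2.26 (Hspa5). Hsp90b1 and Hspa5 encode chaperones of the endoplasmic reticulum, and Hsp90b1 holds the element 2 times. Capitals mark the element or its reverse complement, and the sequences run 5′ to 3′ on the strand of the gene.
Derl3, chr10:75893148-75893447, plus strand: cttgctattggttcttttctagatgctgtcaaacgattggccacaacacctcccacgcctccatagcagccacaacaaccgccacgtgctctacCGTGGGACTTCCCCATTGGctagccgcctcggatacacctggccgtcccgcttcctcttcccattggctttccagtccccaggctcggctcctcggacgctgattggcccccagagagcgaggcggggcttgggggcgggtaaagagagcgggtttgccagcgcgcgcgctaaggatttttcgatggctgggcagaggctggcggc
Creld2, chr15:88819396-88819695, plus strand: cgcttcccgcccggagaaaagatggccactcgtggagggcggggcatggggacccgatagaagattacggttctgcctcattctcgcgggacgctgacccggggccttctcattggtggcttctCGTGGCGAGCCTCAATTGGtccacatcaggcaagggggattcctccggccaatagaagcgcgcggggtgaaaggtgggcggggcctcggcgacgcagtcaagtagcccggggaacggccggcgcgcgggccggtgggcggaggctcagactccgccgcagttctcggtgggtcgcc
Hsp90b1, chr10:86705395-86705694, minus strand: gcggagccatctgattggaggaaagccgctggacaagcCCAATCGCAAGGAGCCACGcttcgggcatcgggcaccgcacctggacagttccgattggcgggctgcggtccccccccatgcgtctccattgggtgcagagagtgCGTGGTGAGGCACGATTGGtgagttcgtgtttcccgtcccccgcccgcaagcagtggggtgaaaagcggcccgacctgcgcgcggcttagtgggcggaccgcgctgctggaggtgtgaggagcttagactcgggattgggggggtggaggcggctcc
Hspa5, chr2:34771840-34772139, plus strand: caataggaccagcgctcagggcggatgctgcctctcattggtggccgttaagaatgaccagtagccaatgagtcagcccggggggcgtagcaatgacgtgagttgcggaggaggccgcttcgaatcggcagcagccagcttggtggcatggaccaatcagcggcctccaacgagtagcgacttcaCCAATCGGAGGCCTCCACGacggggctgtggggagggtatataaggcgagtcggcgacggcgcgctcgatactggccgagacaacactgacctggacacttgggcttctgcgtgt

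Other groups of genes were higher in switched cells. Of 31 genes of the respiratory chain tested, 24 were higher and none lower, with a median log2 fold change of 0.97. Ndufa1, a subunit of complex I, stood at 429 ± 84.5 CPM against 141 ± 33.8 CPM (SD, n = 5). Of 6 cell cycle genes tested, 5 were higher, and Mki67, a protein of dividing cells, stood at 422 ± 302 against 31.3 ± 37.7 CPM. Of 6 genes of the B-1 cell list, 5 were higher, among them Lgals1, Anxa2 and Spn, which are also transcribed by plasma cells and many activated cells. Of 9 homing receptors tested, 4 were higher, including Cd44 and Itgb7, and 3 were lower.

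Genes of the resting B cell were among those lower in switched cells. Zfp318, which allows IgD to be made from the shared heavy chain transcript, was at 0 in the switched cells of HFD+F+CCl4 replicate 2 and WD+F+CCl4 replicate 1 and at 12.7 to 56.6 CPM in the other 3 mice, against 138 to 331 CPM in their IgD cells. All 7 follicular genes tested were lower, with a median log2 fold change of -2.37. Fcer2a stood at 79.8 ± 66.6 against 473 ± 171 CPM, and Cr2, the complement receptor that aids antigen binding, at 21.2 ± 11.6 against 256 ± 73.8 CPM (SD, n = 5). All 9 inhibitory receptors and phosphatases tested were lower, with a median of -1.66, among them Siglecg by -2.13 ± 0.28 and Cd22 by -1.74 ± 0.29 on the log2 scale.

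Of 18 B lineage transcription factors tested, 13 were lower, with a median of -1.11. Ebf1 stood at 250 ± 133 against 1552 ± 446 CPM and Pax5 at 77.5 ± 40.9 against 403 ± 61.0 CPM (SD, n = 5). The 2 that were higher, named after their values were seen, were Irf4, which plasma cells need, by 2.15 and Pou2af1, a coactivator of immunoglobulin genes, by 0.67 on the log2 scale. Of 17 genes of antigen presentation tested, 12 were lower and 1 higher, with a median of -1.03. H2-Aa, an MHC class II chain, stood at 1173 ± 397 against 4010 ± 581 CPM, and Ciita, the activator of the class II genes, at 63.9 ± 21.9 against 274 ± 52.9 CPM. Of 16 genes of antigen receptor signalling tested, 8 were lower and none higher, with Bank1, an adaptor of that pathway, lower by -2.21 ± 0.30 on the log2 scale.

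Markers of other cells moved in the same comparison. Of 9 hepatocyte genes tested 6 were lower in switched cells, with a median log2 fold change of -0.80, and all 3 haemoglobin genes tested were lower, by -3.61 to -3.12. Of 4 monocyte and macrophage genes, Ly6c2 was higher and Lyz2 lower, and Pecam1, the only endothelial, stellate or biliary gene tested, was lower. Their part in the result was not tested. The switched class was deeper than the IgD class, with a median of 4329.5 against 1769 UMIs per cell, and held 39 plasma-type cells, which carried 53.7% of its UMIs. Without the plasma-type cells 87 of 2556 genes were called, in the controls and HFD+F+CCl4 replicate 2, which alone kept at least 10 switched cells. With every cell thinned to 1000 UMIs 79 of 638 were called, in the controls and WD+F+CCl4 replicate 1 for the same reason. Cells ranked as likely doublets made up 17.5% of the switched class and 4.07% of the IgD class. Without them only the 2 control mice kept at least 10 switched cells. In that fit each of the 16 genes with the largest changes kept its direction and its call, and the NASH mice were not tested. Of these 16 genes, 9 had a value without plasma-type cells and 4 with thinned cells, and each kept its direction and its call.

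**Figure D3:**
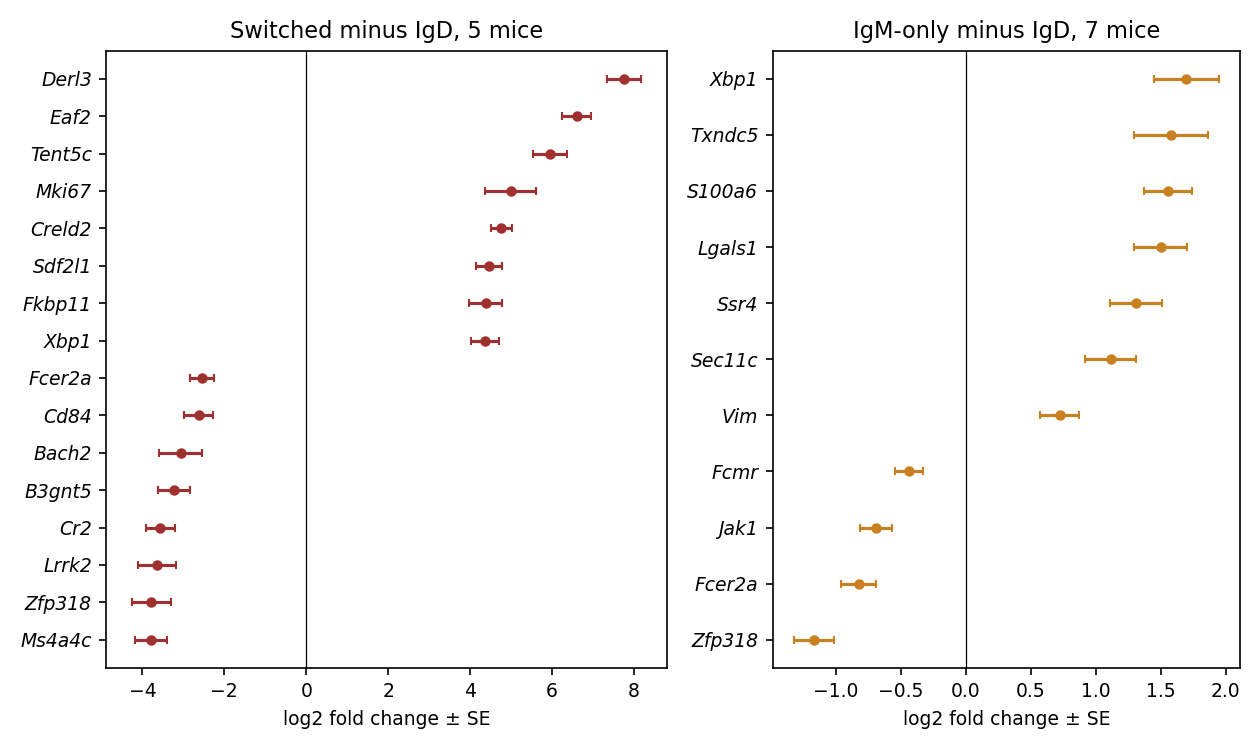
Log2 fold change of single genes, with points for the estimate and bars for its SE, in switched against IgD cells (left, the 8 largest rises and falls of the naming rule, 5 mice) and in IgM-only against IgD cells (right, called genes, part of them chosen after their values were seen, 7 mice). The left panel runs from -3.78 for Zfp318 to 7.76 for Derl3, and the right panel, on a narrower axis, from -1.17 for Zfp318 to 1.69 for Xbp1.

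IgM-only cells held more S100a6 than the IgD cells of each of 7 mice, and more Xbp1 and less Fcer2a and Zfp318 in 6 of the 7. In 7 mice, with 453 IgM-only against 3720 IgD cells, 54 of 2908 genes tested were called (1.86%), 38 of them higher in IgM-only cells (1.31%) and 16 lower (0.55%). S100a6, a calcium-binding protein of the B-1 cell list, was the clearest. It stood at 473 and 391 CPM in the IgM-only cells of the controls, 589 and 659 CPM in those of HFD+F+CCl4 replicates 1 and 2 and 341, 315 and 1305 CPM in those from WD+F+CCl4. The IgD cells held 138 to 271 CPM, and the classes did not overlap. The log2 fold change was 1.55 ± 0.18 (SE, n = 7 mice, adjusted p = 2.26e-05 by edgeR's quasi-likelihood test).

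Of 5 B-1 cell genes tested, 4 were higher in IgM-only cells (S100a6, Lgals1, Ahnak and Vim), with a median of 0.98 against -0.0031 for all genes tested. Cd5, also of the B-1 cell list, was found in 0% to 2.91% of thinned B cells of all classes per mouse, against 7.59% to 15.7% of T cells. Bhlhe41 and Zbtb32 of that list were found in 0% to 5.33% and 0% to 4.35% of these B cells, against at most 0.417% and 2.67% of T cells. These shares were not taken within the IgM-only class, and no B-1 class is named here. Of 6 plasma cell genes tested, 4 were higher, among them Xbp1 by 1.69 ± 0.25 and Txndc5 by 1.58 ± 0.28 on the log2 scale. Of 9 follicular genes tested, 4 were lower, including Fcer2a by -0.82 ± 0.14. Zfp318 was lower by -1.17 ± 0.15. Jak1, a kinase of cytokine receptors, was lower by -0.69 ± 0.12. The haemoglobin genes Hbb-bs and Hba-a1 were also lower, by -3.28 and -3.22, and they are transcripts of red blood cells. The IgM-only class held 12 plasma-type cells, which carried 14.2% of its UMIs, and 36.9% in HFD+F+CCl4 replicate 2, where Xbp1 was highest at 557 CPM. Without the plasma-type cells 30 genes were called, S100a6 and Jak1 kept their calls, and Ssr4 and Sec11c, genes of protein secretion named by the same rule, lost theirs, with adjusted p-values of 0.709 and 0.205 by edgeR. With each cell thinned to 1000 UMIs 8 of 1634 genes tested were called. Of S100a6, Jak1, Ssr4 and Sec11c, all kept their direction there, but only 1 kept its call and 3 lost theirs.

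The study compared each NASH model with control, and the genes called in B cells included markers of other liver cells. UMIs were summed over the B cells of each mouse and tested by edgeR's quasi-likelihood test in a single fit of the 3 groups. Of 8276 genes tested, 85 (1.03%) were called under HFD+F+CCl4 at an adjusted p under 0.05, with 41 higher (0.495%) and 44 lower (0.532%). Under WD+F+CCl4, 214 (2.59%) were called, with 81 higher (0.979%) and 133 lower (1.61%). Between the models, WD+F+CCl4 against HFD+F+CCl4, no gene was called (0%), with 697 at an unadjusted p under 0.05 and 63 called by DESeq2. The median log2 fold change of all genes tested was -0.03 under both models. The model comparisons share the control mice. Marker lists of other cell types held 6 of the 41 higher and 6 of the 44 lower genes under HFD+F+CCl4, and 6 of the 81 higher and 25 of the 133 lower genes under WD+F+CCl4.

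Genes of macrophages rose in the B cell libraries of both models. C1qa, a chain of complement C1q made by macrophages, stood at 2.68 and 0 CPM in controls, 208, 113 and 36.3 CPM under HFD+F+CCl4 and 34.0, 54.7 and 161 CPM under WD+F+CCl4. The same rule named C1qb, C1qc, Gpnmb and Lpl in both comparisons. Under HFD+F+CCl4 6 of 14 monocyte and macrophage genes rose, with a median log2 fold change of 2.24, and under WD+F+CCl4 5 of 14, with a median of 1.62. The summed level of that list was 645 to 1902 CPM in controls, 1424 to 3051 CPM under HFD+F+CCl4 and 1169 to 2144 CPM under WD+F+CCl4.

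Genes of hepatocytes and of T and NK cells fell. Cyp3a11, a drug-metabolising enzyme of hepatocytes, stood at 102 and 115 CPM in the B cells of the controls and at 0 to 4.58 CPM in those of the 6 NASH mice. Of 18 hepatocyte genes 5 fell under HFD+F+CCl4 and 15 under WD+F+CCl4, with medians of -2.06 and -4.23. The summed hepatocyte list fell from 5443 to 6071 CPM in controls to 236 to 1962 CPM and 161 to 541 CPM. Of 10 T and NK cell genes, 1 fell under HFD+F+CCl4 and 8 under WD+F+CCl4. Trbc2, a chain of the T cell receptor, stood at 64.7 and 287 CPM in controls, at 0, 10.7 and 0 CPM under HFD+F+CCl4 and at 5.58, 10.9 and 6.50 CPM under WD+F+CCl4. Alb, the hepatocyte transcript of albumin, was found in 53.3% and 64.1% of thinned B cells of the controls and in 45.5% and 60.8% of their T cells, in 34.7%, 47.3% and 4.35% of the B cells under HFD+F+CCl4 and 35.4%, 42.1% and 6.94% of the T cells there, and in at most 5.44% and 9.44% under WD+F+CCl4. HFD+F+CCl4 replicates 1 and 2 thus lay nearer to the controls than to the other NASH mice in this share. Members of the Mup and Serpina1 families among these genes are near-identical, and reads may be split between them.

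**Figure D4:**
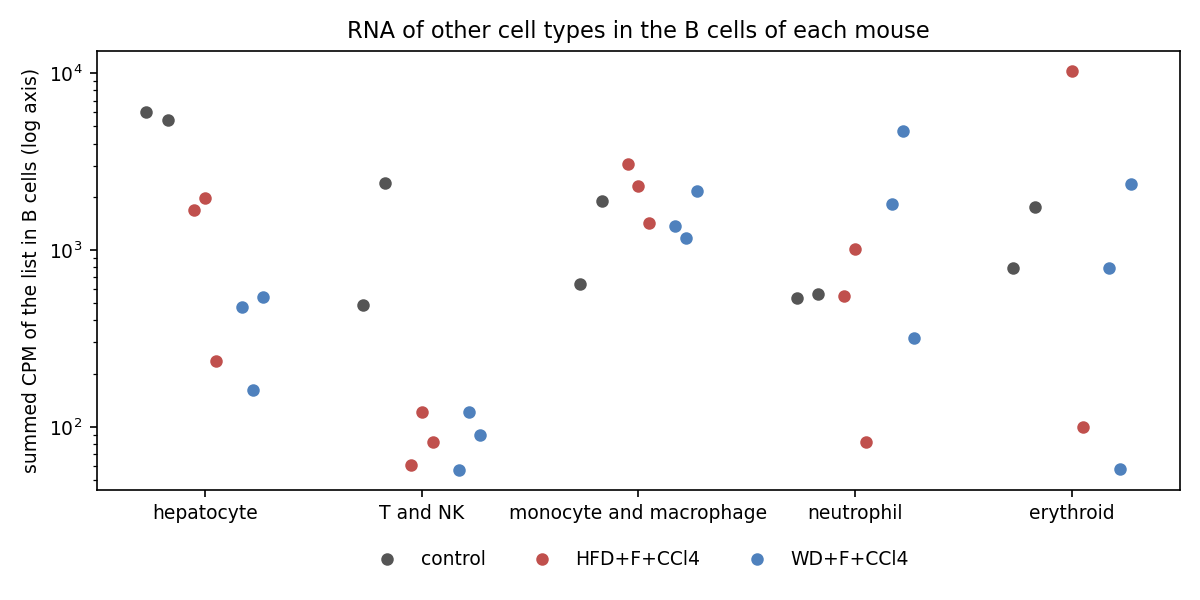
Summed level of 5 marker lists of other liver cells in the B cells of each mouse, in CPM on a log axis, with 1 point per mouse coloured by condition. The hepatocyte list lies at 5443 to 6071 CPM in controls and 161 to 541 CPM under WD+F+CCl4, and the erythroid value of HFD+F+CCl4 replicate 1 is 0 and is not drawn.

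The ranges of the neutrophil and erythroid lists overlapped between groups. The neutrophil list summed to 538 to 566 CPM in controls, 81.6 to 1014 CPM under HFD+F+CCl4 and 320 to 4740 CPM under WD+F+CCl4, where Lcn2 alone of 6 neutrophil genes tested rose. The erythroid list summed to 792 to 1746, 0 to 10337 and 57.8 to 2361 CPM in the same order. The dendritic cell list summed to 28.1 to 55.9 CPM under WD+F+CCl4, below every control and HFD+F+CCl4 mouse at 64.2 to 270.5 CPM, and the list of endothelial, stellate and biliary cells reached at most 659.7 CPM. From these 2 lists Ccr9 and Dcn fell under WD+F+CCl4, and no other tested member was called in either model. The mitochondrial gene mt-Nd3, named after its values were seen, stood at 3.26 and 8.20 CPM in controls and at 525.9 to 2234 CPM in the 6 NASH mice, and its log2 fold changes in T cells were 8.18 and 8.44 against 8.25 and 8.62 in B cells. The part of these differences between libraries in the B cell results was not tested.

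Part of the called genes were B cell enriched. A gene was taken as such when its level in B cells exceeded that of the other kept cells, summed together, in each of the 8 mice. This held for 7.83% of genes tested. T cells alone could still stand above B cells, as they did for Ltb and Rflnb in some mice. Of the 41 genes that rose under HFD+F+CCl4 8 were of this kind, of the 44 that fell 5, of the 81 that rose under WD+F+CCl4 13 and of the 133 that fell 4. The genes of this kind described next were chosen after these values were seen.

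Il9r, the receptor of interleukin-9 (chromosome 11, bases 32187541 to 32200279, minus strand, protein coding), was higher in the B cells of every NASH mouse. It stood at 10.9 and 12.3 CPM in controls, 126, 70.3 and 54.4 CPM under HFD+F+CCl4 and 83.2, 87.5 and 83.2 CPM under WD+F+CCl4. All 6 NASH mice lay above both controls. The values rest on 57 and 3 UMIs in controls, 29, 46 and 6 UMIs under HFD+F+CCl4 and 179, 56 and 64 UMIs under WD+F+CCl4. The log2 fold change was 3.02 ± 0.34 under HFD+F+CCl4 (adjusted p = 0.00135 by edgeR's quasi-likelihood test) and 3.11 ± 0.32 under WD+F+CCl4 (adjusted p = 0.000153).

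The pattern of Il9r was found in the IgD class too, at 12.3 and 8.25 CPM in controls, 155, 90.5 and 190 CPM under HFD+F+CCl4 and 88.2, 108 and 99.8 CPM under WD+F+CCl4. It was found in 0.985% and 1.94% of thinned B cells of the controls, in 10.7%, 8.48% and 13.0% under HFD+F+CCl4 and in 6.81%, 6.85% and 8.46% under WD+F+CCl4, against 0% to 0.844% of T cells. Other kept cells held 0.668 to 3.75 CPM. Without control replicate 1, which carries 57 of the 60 control UMIs, the adjusted p of edgeR's test was 0.100 under HFD+F+CCl4 and 0.0352 under WD+F+CCl4. The change in B cells exceeded that in T cells by 2.39 and 2.58 on the log2 scale, with adjusted p-values of 0.180 and 0.0805 by edgeR, so a change beyond that of T cells was not shown.

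Ltb and Ccr6 also rose. Ltb, the membrane anchor of lymphotoxin, stood at 299 and 295 CPM in controls, 564, 623 and 417 CPM under HFD+F+CCl4 and 963, 599 and 636 CPM under WD+F+CCl4, where the log2 fold change was 1.55 ± 0.29 (adjusted p = 0.0129 by edgeR). Its change in T cells was 1.04 and 1.21 under the 2 models. T cells held 333 and 287 CPM of Ltb in controls, 621, 570 and 689 CPM under HFD+F+CCl4 and 719, 648 and 514 CPM under WD+F+CCl4. Ccr6, a chemokine receptor that guides B cells to epithelia, stood at 49.4 and 28.7 CPM in controls, 95.5, 91.7 and 99.7 CPM under HFD+F+CCl4 and 78.6, 103 and 102 CPM under WD+F+CCl4. It was called under WD+F+CCl4 with 1.29 ± 0.28 (adjusted p = 0.0294 by edgeR), and its adjusted p under HFD+F+CCl4 was 0.0862. Without either control mouse the WD+F+CCl4 calls of both genes were lost, as was that of Ltb without WD+F+CCl4 replicate 1 and that of Ccr6 without replicate 2. The call of Ccr6 was also lost with a block for the replicate number and without B cells that held markers of other cells, where its log2 fold change was 0.84 (adjusted p = 0.185 by edgeR).

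Serpinb1a, an inhibitor of granule proteases, fell under HFD+F+CCl4. It stood at 240 and 213 CPM in controls, 56.4, 79.5 and 72.5 CPM under HFD+F+CCl4 and 158, 138 and 154 CPM under WD+F+CCl4, and the groups did not overlap. The log2 fold change under HFD+F+CCl4 was -1.52 ± 0.26 (adjusted p = 0.0189 by edgeR), and that in T cells was 1.60. The difference of -3.15 between the cell types passed its test (adjusted p = 0.00434 by edgeR). It is 1 of 32 among 11925 genes (0.268%) called for a difference between the changes in B and T cells under HFD+F+CCl4, beside 60 under WD+F+CCl4 (0.503%) and 7 for the models set against each other (0.0587%). Under WD+F+CCl4 the log2 fold change was -0.37 ± 0.22 (adjusted p = 0.518).

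Pgap1, which remodels lipid anchors of proteins, stood at 230 and 172 CPM in controls, 56.4, 70.3 and 36.3 CPM under HFD+F+CCl4 and 91.6, 61.0 and 98.9 CPM under WD+F+CCl4. It was called under HFD+F+CCl4, with a log2 fold change of -1.63 ± 0.30. Add3, a protein of the membrane skeleton, fell from 371 and 344 CPM to 130, 148 and 127 CPM under HFD+F+CCl4 (-1.22 ± 0.24). In the IgD class Add3 stood at 394.5 and 445.7 CPM in controls. The IgD cells of the HFD+F+CCl4 mice held 198.6, 183.5 and 379.7 CPM, the last on 10 UMIs. Rflnb, which binds filamins, fell from 64.4 and 73.8 CPM to 15.3 to 21.7 CPM under HFD+F+CCl4, on 5, 10 and 2 UMIs. Under WD+F+CCl4 it stood at 18.2 to 25.02 CPM. T cells held 70.5 and 52.6 CPM in controls, 14.9 to 24.55 and 32.2 to 33.0 CPM under the 2 models, with log2 fold changes of -1.65 and -0.79. In the IgD class Rflnb stood at 70.4 and 115.5 CPM in controls and 43.2, 24.5 and 75.9 CPM under HFD+F+CCl4, where replicate 3 lay within the control range. In that class Pgap1 and Serpinb1a lay below both controls in each HFD+F+CCl4 mouse. Without control replicate 1 none of the calls of Serpinb1a, Pgap1, Add3 and Rflnb was kept, and without HFD+F+CCl4 replicate 1 or replicate 2 their HFD+F+CCl4 calls were lost too. All 4 of these calls were also lost without likely doublets, where HFD+F+CCl4 replicate 3 had fewer than 20 B cells and was out of the fit. Those of Pgap1, Add3 and Rflnb were lost with a block for the replicate number. Those of Add3 and Rflnb were also lost without plasma-type cells and in a fit of only the 2 groups.

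**Figure D5:**
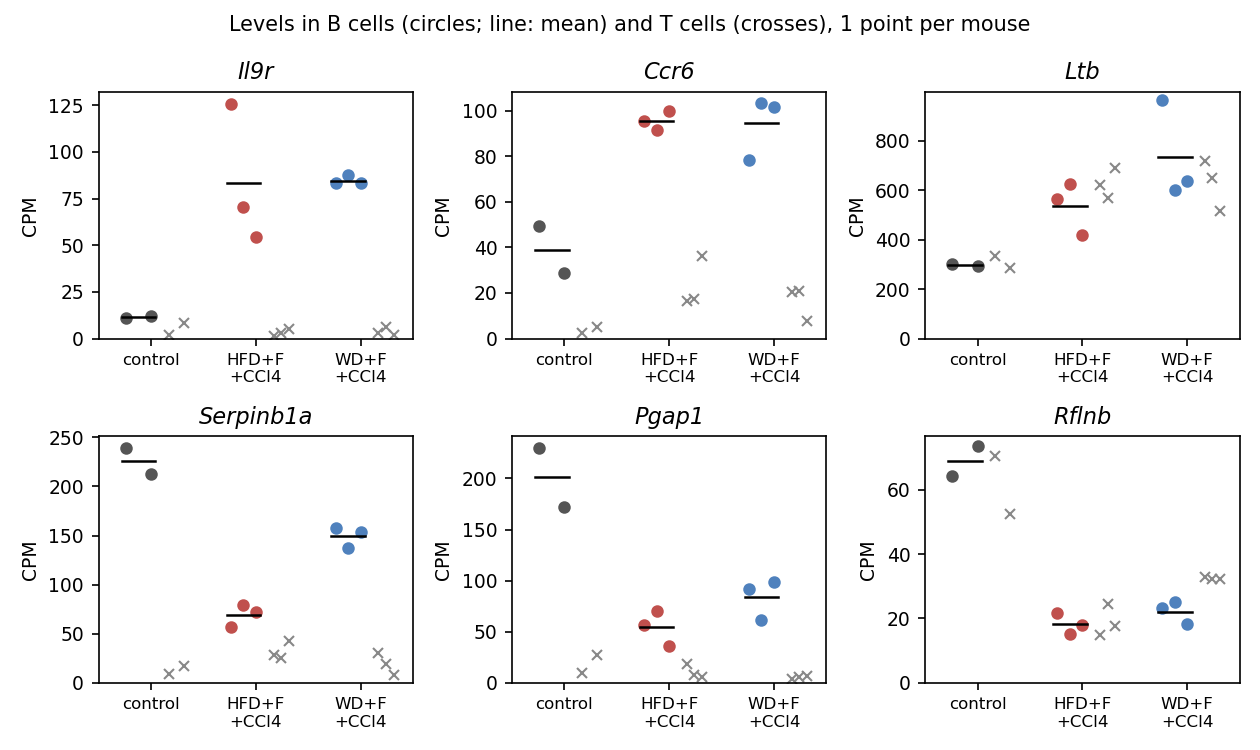
Level, in CPM, of 6 genes that were higher in B cells than in the other kept cells summed together, grouped by condition. Circles give the summed B cells of each mouse, with a line at the group mean, and crosses give its T cells. For Ltb and Rflnb the T cells of some mice stood above their B cells. In B cells Il9r lies at 10.9 and 12.3 CPM in controls and at 54.4 to 126 CPM in the 6 NASH mice.

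A few plasma cell genes rose under HFD+F+CCl4. Of 18 genes tested 3 rose (Fkbp11, Derl3 and Txndc5, which encode proteins of the endoplasmic reticulum), with a median log2 fold change of 1.75, and under WD+F+CCl4 none was called, with a median of -0.07. Fkbp11 stood at 22.6 and 24.6 CPM in controls, 69.4, 148 and 453 CPM under HFD+F+CCl4 and 24.2, 28.1 and 19.5 CPM under WD+F+CCl4. The highest value belonged to HFD+F+CCl4 replicate 3, in which 4 plasma-type cells held 56.6% of the UMIs. Without cells ranked as likely doublets the log2 fold changes of Fkbp11, Derl3 and Txndc5 were 0.60, -0.23 and 0.13. HFD+F+CCl4 replicate 3 then had fewer than 20 B cells and was out of the fit. The parts of the doublets and of that mouse in this drop were not tested. Derl3 and Tent5c were also among the 5 genes with the smallest p between the 2 models, with log2 fold changes of -2.52 and -2.53 and adjusted p-values of 0.120 and 0.126 by edgeR, beside the hepatocyte genes Serpina1e, Mup20 and Apob.

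In most other B cell lists no gene was called between conditions. Of all genes tested 1.03% were called under HFD+F+CCl4 and 2.59% under WD+F+CCl4, so short lists without a call lie near these shares. None of 21 genes of antigen receptor signalling, 13 inhibitory receptors and 20 B lineage transcription factors tested was called in either model. Their medians were -0.0036, 0.00075 and -0.19 under HFD+F+CCl4 and 0.16, 0.13 and 0.06 under WD+F+CCl4. Of 20 genes of antigen presentation Ctss alone rose under WD+F+CCl4, by 1.07 ± 0.26, and none was called under HFD+F+CCl4. None of the 22 interferon-stimulated, 25 immediate early, 32 respiratory chain and 21 cell cycle genes tested was called. Their medians under HFD+F+CCl4 were 0.04, 0.98, 0.26 and 0.56, and under WD+F+CCl4 0.55, 0.50, 0.31 and -0.58. Several of these lists leaned one way without a call. Under HFD+F+CCl4 24 of the 25 immediate early genes and 19 of the 21 cell cycle genes had log2 fold changes above 0, and under WD+F+CCl4 18 and 1. In T cells 27 of 29 and 21 of 22 of these genes were above 0 under HFD+F+CCl4. Of 10 follicular genes 1 was above 0 under HFD+F+CCl4, with a median of -0.54, and 5 under WD+F+CCl4, with a median of -0.0042. Of 13 genes of the B-1 cell list 11 and 9 were above 0, with medians of 0.86 and 0.32, and of 21 genes of BAFF, CD40 and lymphotoxin signalling 16 were above 0 under each model, with medians of 0.46 and 0.34, Ltb alone being called. In the marginal zone list Myof rose under HFD+F+CCl4, by 4.01 ± 0.78, and its log2 fold change in T cells was 3.01.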

How the data were processed

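Single-cell RNA libraries were made from the livers of 8 mice. The authors deposited UMI counts per gene and barcode, not normalized, made with the Cell Ranger pipeline on GRCm38 after bcl2fastq 2.20. All 55450 gene identifiers were found in GENCODE vM21. Mice were told apart by the barcode suffix, and groups were taken from the labels. The labels give 1 sample per mouse, and each mouse was 1 replicate.

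The rule for B cells, the gene lists and the promoter element were chosen with earlier results of these data known. Counts were summed per mouse, or per mouse and heavy chain class with the mouse as a term. They were scaled by TMM, filtered by filterByExpr and tested with edgeR 4.0.16 (quasi-likelihood, R 4.3.3), with DESeq2 1.42.0 as an alternative. Benjamini-Hochberg adjusted p-values under 0.05 were called. Levels are CPM of all UMIs of the summed cells, and their SDs are across mice. The intervals of cell shares cover counting error only, and the SEs are those of edgeR's fold changes. Shares were compared by exact two-sided permutation tests in Python 3.11.15, and doublets were ranked with scanpy 1.11.5, marking 0.8% per 1000 barcodes.

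Genes were named by rule: per comparison, the 8 largest rises and falls among called genes with a mean log2 CPM over 4 whose mice did not overlap. Gene models and mitochondrial, ribosomal and immunoglobulin genes were left out of that rule. With fewer than 5 calls, the 5 smallest p-values were taken. From each list up to 4 called members with the smallest p and 3 with the highest level could be named. Genes outside the rule are said to be so. On simulated counts with 200 genes changed 4-fold, edgeR recovered 66.5% in the HFD+F+CCl4 comparison and 77% in the WD+F+CCl4 comparison (8279 genes each), and 100% in the switched (1653 genes) and IgM-only (2913 genes) comparisons. Unchanged genes called by mistake numbered 12 beside 133 recovered, 23 beside 154, 6 beside 200 and 10 beside 200 in the same order, so the share of false calls exceeded 5% in the HFD+F+CCl4 and WD+F+CCl4 comparisons, and DESeq2 made 4 and 7 there.

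Alternatives were DESeq2, other size factors, no filter on low counts, other limits for cells and markers, thinning, a block for the replicate number, 2-group fits, and leaving out each mouse, likely doublets and immunoglobulin genes. Leaving out plasma-type cells, leaving out ribosomal protein and mitochondrial genes, and selecting B cells without the 4 excluding genes were added after seeing the data. The values of some genes are not reported here.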

Additional observations from a re-analysis of the deposited data

Results flagged for a closer look

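WD+F+CCl4 replicate 1 stood apart from the other NASH mice in its share of B cells. It held 9.55% of kept cells as B cells, and the gap to the next of the 6 NASH mice was 0.667 of their whole range, above the limit of 0.625 for 6 values. HFD+F+CCl4 replicate 3 stood apart in plasma-type cells, which were 16.7% of its 24 B cells, with a gap of 0.714 of the range. Chance alone marks about 5% of such groups, and 6 measures were looked at.

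The change in B cells was set against the change in T cells of the same mice in 1 fit with an interaction term by edgeR. Of 11925 genes tested, 32 changed differently in the 2 cell types under HFD+F+CCl4 (0.268%), 60 under WD+F+CCl4 (0.503%) and 7 between the models (0.0587%). For B cell immunoglobulin genes and Ighd the difference came with a fall in T cells. Il2rb, a receptor chain of T and NK cells, changed by -5.13 in B cells and -0.91 in T cells under HFD+F+CCl4. Serpinb1a fell in B cells and differed from T cells by -3.15 under HFD+F+CCl4. All 7 genes between the models were lower in B cells under WD+F+CCl4 relative to T cells, Fkbp11 by -4.50.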

How the results depend on the processing

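With 2 control mice of 2161 and 144 B cells, every comparison with control rests on which of them is used. For B cell shares, leaving out single mice gave -16.9 to -0.290 points for NASH, -18.9 to -2.37 for HFD+F+CCl4, -14.8 to 1.79 for WD+F+CCl4 and 2.01 to 5.36 between the models, and the WD+F+CCl4 difference turned to 1.79 without control replicate 1. For switched shares the ranges were -4.56 to 3.41 for NASH, where it turned without control replicate 2 (3.41) and without replicates 1 (0.239) and 3 (0.0887) of WD+F+CCl4, and -9.40 to -4.44 between the models. With cells of more than 1000 genes the share of switched cells among B cells, NASH minus control, was 0.328. HFD+F+CCl4 replicate 3 had too few such cells for a value there. No share comparison could be called with these mice.

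Genes called under HFD+F+CCl4 (85) numbered 136 by DESeq2, 375 with every counted gene, 52 with only the 2 groups compared and 24 without likely doublets, and 14 to 80 without single mice (20 without control replicate 1, 32 without HFD+F+CCl4 replicate 1, 14 without replicate 2). Under WD+F+CCl4 (214) they numbered 116 with at least 6 marker UMIs, 586 with every counted gene and 78 to 273 without single mice (78 and 126 without control replicates 1 and 2, 117 and 112 without WD+F+CCl4 replicates 1 and 2). Between the models (0) they numbered 63 by DESeq2, 186 with every counted gene, 2 without likely doublets, 2 without plasma-type cells and 0 to 20 without single mice (20 and 3 without HFD+F+CCl4 replicates 2 and 3, 10 without WD+F+CCl4 replicate 3). Where a single control is left, it is assumed to vary like the other groups. The switched comparison (715) gave 1427 with every counted gene, 79 thinned, 87 without plasma-type cells and 378 to 1035 without single mice (378 without control replicate 1). Fewer genes, 638, could be tested thinned, and fewer mice kept at least 10 switched cells both thinned and without plasma-type cells. The IgM-only comparison (54) gave 35 by DESeq2, 138 with every counted gene, 8 with no mouse block, 8 thinned, 33 without likely doublets, 30 without plasma-type cells and 20 to 53 without single mice (29, 33 and 20 without WD+F+CCl4 replicates 1, 2 and 3, 31 without control replicate 1). Without likely doublets HFD+F+CCl4 replicate 3 had fewer than 20 B cells and was out of the fits between conditions. Derl3, HFD+F+CCl4 against control, turned to -0.23 in that setting. The causes of these changes were not tested.

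With the replicate number as a block, 44 genes were called under HFD+F+CCl4 and 6 between the models. Deviations from the group means correlated at -0.143 to 0.106 in the 7 pairs of the same number and at -0.163 to 0.236 in the 14 others. Deviations within such small groups depend on each other, so these values cannot decide whether equal numbers pair mice. Leaving out B cells with other cells' markers could not be fitted under HFD+F+CCl4, where too few cells remained.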
